A study of Mus musculus with 8 samples.

Results

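The carbonic anhydrase genes described here are Car1, Car2, Car3, Car4, Car8, Car9, Car10, Car11, Car12 and Car14, which are 10 of the 19356 genes measured. They were measured in caudal urogenital ridges dissected from mouse embryos at E10.75, on 4 arrays of wildtype and 4 arrays of Sox11-/- (knockout) ridges, each array holding an independent biological replicate without treatment. Both groups came from mice on a mixed genetic background. The labels do not say how many embryos went into a replicate, so the spread between arrays is that between these RNA samples. The family was chosen by the knockout minus wild type difference of Car14 on these same arrays, which was already known to be among the largest, and the other 9 stand beside it as its paralogs. The differences of the 10 genes between the genotypes are therefore given as a description, with no p-value. Each gene was read by 1 probe set that carries a single gene symbol, so no choice between probe sets was made for these genes.

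Carbonic anhydrases are zinc enzymes that join carbon dioxide and water into bicarbonate and a proton, and run the reaction backwards as well. Some work in the cytosol, where they serve gas transport and acid secretion, while others face the outside of the cell on a membrane anchor or a transmembrane segment and pass bicarbonate or protons to transporters beside them. In the mature kidney, cytosolic and membrane-bound forms together allow the tubule to take back bicarbonate. A further group, the carbonic anhydrase-related proteins, kept the fold but lost the enzyme activity.

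The sequence shown is that of the Car14 promoter, since Car14 is the member with the large genotype difference and the factor missing from the knockout binds DNA. It covers the 250 bases before the RefSeq start of Car14 on the minus strand of GRCm38.p6 (chr3:95904686-95904935), read from RefSeq 5′ to 3′, with the letters CAAAG in capitals:
Car14: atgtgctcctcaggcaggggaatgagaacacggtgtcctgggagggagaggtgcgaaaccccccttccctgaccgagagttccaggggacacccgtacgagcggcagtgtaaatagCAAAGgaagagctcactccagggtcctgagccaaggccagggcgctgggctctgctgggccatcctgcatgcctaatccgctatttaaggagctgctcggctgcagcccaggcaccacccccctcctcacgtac
CAAAG is the ACAAAG motif that Sox proteins bind without its first A, and in this sequence a G stands before it. The motifs ACAAAG and ACAATG were searched on both strands, and neither was present in this window, where 25.2% of 32851 promoter windows of the same length held at least 1 of them. CAAAG, a part of ACAAAG searched after the Car14 sequence had been seen, occurred 1 time, 134 bases before the start, and 48.6% of all windows held it. RefSeq's promoter table had entries for 6 of the 10 genes (Car4, Car9, Car10, Car11, Car12 and Car14), with 8 windows in all. None of these 8 held ACAAAG or ACAATG, and 2 held CAAAG, those of Car14 and Car9. These are letter matches in a short window and do not show binding or its absence.

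Sox11, the targeted gene, had a log2 signal between 11.72 and 11.86 on the wild type arrays and between 8.93 and 9.24 on the knockout arrays. All 13 measured markers of the nephric duct and all 11 of the metanephric mesenchyme lay above the 25th percentile of the level of all genes. By the definition of this cut, 14517 of the 19356 genes lay above it. Of other cell types, endothelium had 10 of 10 above it, neurons 12 of 13, erythroid cells 12 of 13, neural crest and glia 5 of 6 and muscle 8 of 12. The count therefore cannot tell whether the tissue label holds. Arrays correlated with each other at a Pearson's r of 0.987 to 0.995, taken across genes that are not independent of each other. The Y-linked genes gave signal on wild type replicate 1 and on knockout replicates 3 and 4 only, with mean log2 values of 9.84 to 10.06 there and 5.31 to 5.58 elsewhere. A filter at the 25th percentile of level kept 8 of the 10 carbonic anhydrase genes, and Car1 and Car9 lay below it.

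Among the membrane-bound enzymes, Car14, a transmembrane form whose catalytic domain faces outward, was lower on every knockout array than on any wild type array. Its log2 signal was 9.70, 9.48, 9.40 and 9.04 on wild type arrays 1 to 4 and 7.69, 7.96, 7.50 and 7.55 on knockout arrays 1 to 4. The groups did not overlap, and a gap of 1.09 log2 units parted the lowest wild type array from the highest knockout array. That gap was wider than the range within either group, which was 0.66 in wild type and 0.45 in knockout. Mean levels were 9.41 ± 0.27 (SD, n = 4) and 7.67 ± 0.20 (SD, n = 4), which is a difference of -1.73 (SE 0.14) on the log2 scale with a 95% limma interval from -2.05 to -1.42. On the linear scale this is 3.33-fold lower. Only 0.0103% of all genes had a difference of larger size in either direction. The ridges are bulk samples, so fewer cells that express a gene and less of its RNA per cell cannot be told apart.

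Car4, which is held on the outer membrane by a lipid anchor and is known from capillaries and kidney tubules, varied most among the knockout arrays. Its log2 signal was 7.63, 7.58, 7.26 and 7.24 in wild type and 7.74, 7.28, 6.57 and 6.55 in knockout. Knockout replicates 3 and 4, the knockout arrays with Y-linked signal, lay below all other arrays, while knockout replicate 1 was the highest of the 8. The groups overlapped, with a difference of -0.39 (SE 0.24) and an interval from -0.92 to 0.13. Wild type replicate 1, which also had Y-linked signal, was at the upper end of its group. When the Y-linked signal entered the fit as a covariate, the Car4 difference was -0.30. It was -0.62 without knockout replicate 1, -0.24 without knockout replicate 3 and -0.23 without knockout replicate 4.

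Car9 and Car12 are transmembrane enzymes known for their rise under low oxygen in tumour cells. The log2 signal of Car9 was 6.17, 6.16, 5.97 and 6.0 in wild type and 6.03, 5.72, 6.01 and 6.03 in knockout. Knockout replicate 2 lay apart below the rest, and the other 3 knockout arrays fell within the wild type range. Car9 differed by -0.13 (SE 0.09) at a level below the 25th percentile of all genes, where the array compresses differences, and by -0.05 without knockout replicate 2. Car12 read 7.45, 6.78, 7.59 and 7.31 in wild type and 7.79, 6.90, 7.86 and 7.06 in knockout. Its arrays scattered within each genotype over 0.82 and 0.96 log2 units, which is far more than the genotype difference of 0.12 (SE 0.24). The interval for Car12 ran from -0.41 to 0.64, so a change of the size seen in Car14 lies outside it in either direction.

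**Figure D1:**
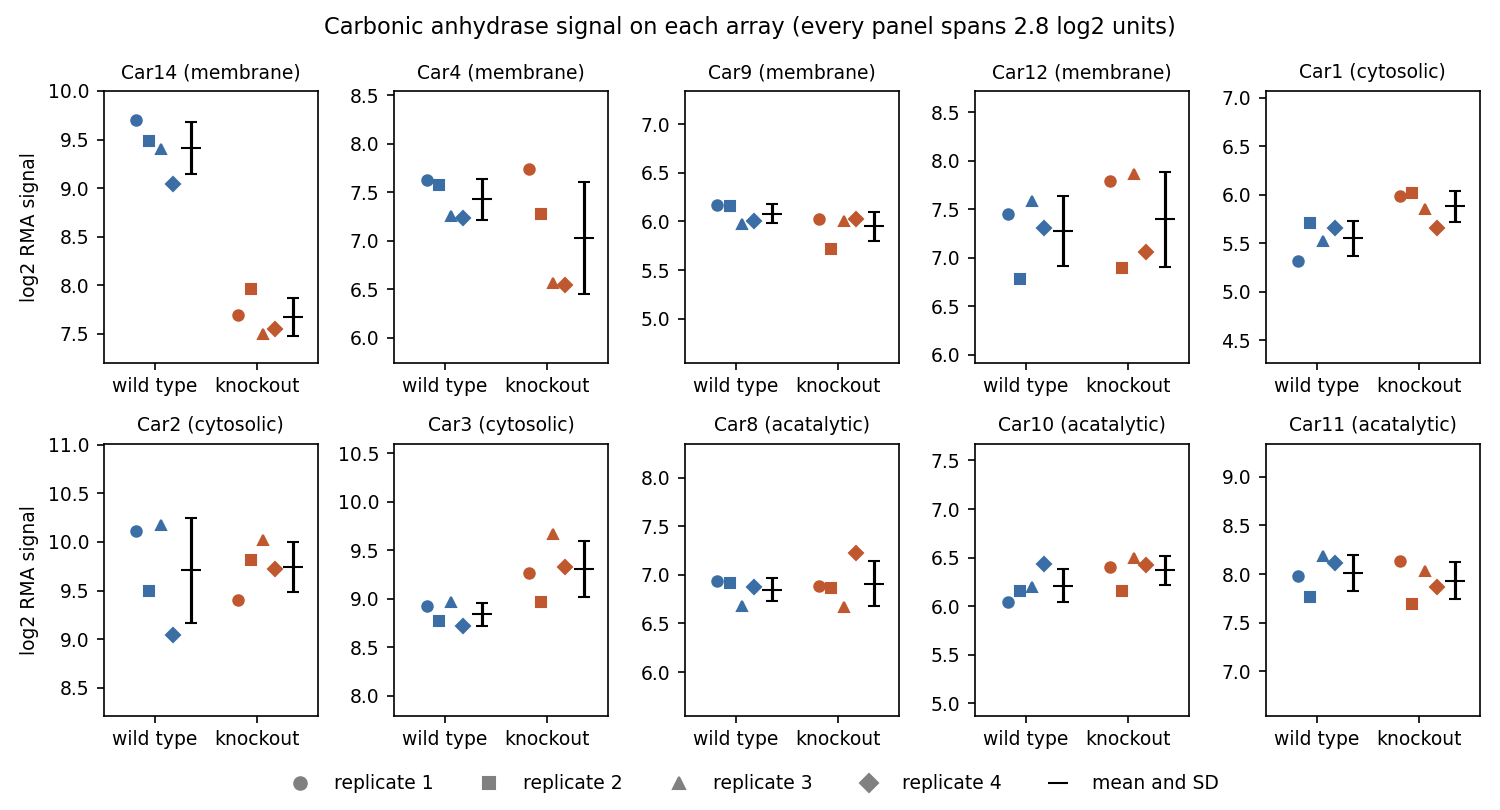
Log2 RMA signal (y axis) of the 10 carbonic anhydrase genes in wild type and knockout ridges (x axis), with 1 point per array, the replicate number as the symbol, and a bar for mean and SD (n = 4 per genotype). Car14 on the 4 knockout arrays sits between 7.50 and 7.96, below all wild type arrays, while Car2, Car4 and Car12 scatter widely within a genotype.

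Of the cytosolic enzymes, Car3 had the largest difference. Car3 is a form of low activity that is abundant in skeletal muscle and fat. It read 8.93, 8.77, 8.97 and 8.72 in wild type and 9.27, 8.97, 9.67 and 9.33 in knockout, a difference of 0.46 (SE 0.13, interval 0.18 to 0.75). The groups did not overlap, yet they nearly touched: knockout replicate 2 lay 0.0036 log2 units above wild type replicate 3. In the same arrays 10 of 12 muscle genes lay above 0 with a median of 0.13, and the mean log2 level of these 12 genes was 7.06 to 7.17 in wild type and 7.15 to 7.38 in knockout. Limma called 0 of these 12 over all genes, with 4 higher at an unadjusted p under 0.05. Over all genes 50.1% lay below 0, and limma's unadjusted p was under 0.05 for 9.38% lower and 7.29% higher in knockout, the shares that stand behind this and each later count of that kind. Des, the intermediate filament of muscle, differed by 0.38 (limma adjusted p = 0.06) and met the threshold in 4 of 18 alternatives, both further scalings among them (limma adjusted p from 0.0227 to 0.158). The muscle regulators Myod1 and Myf5 were both below the 25th percentile of level. After the genotype means were taken off, Car3 and the mean of the muscle genes correlated over the 8 arrays with r = -0.30 (exact permutation p within genotype = 0.644, two-sided) and rho = -0.12 (exact permutation p = 0.826), and r was 0.21 without knockout replicates 1 and 3.

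Car1, an enzyme of mature red cells, read 5.32, 5.71, 5.52 and 5.66 in wild type and 5.99, 6.02, 5.85 and 5.66 in knockout. The difference was 0.33 (SE 0.11), and knockout replicate 4 lay inside the wild type range while the other knockout arrays lay above it. This gene, too, was below the 25th percentile of level. Car2, the fast enzyme of red cells, kidney and many epithelia, read 10.11, 9.50, 10.18 and 9.04 in wild type and 9.40, 9.81, 10.02 and 9.72 in knockout. Wild type arrays spanned 1.15 log2 units and enclosed all knockout arrays. Car2 differed by 0.03 (SE 0.23, interval -0.49 to 0.55), and the sign of this small value turned with the arrays used, from -0.19 without wild type replicate 4 to 0.19 without wild type replicate 3.

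The spread of Car2 followed that of red cell genes. Klf1, the erythroid transcription factor, read 7.25, 6.90, 7.30 and 6.43 in wild type and 6.62, 6.84, 6.89 and 6.64 in knockout, which is the same order of arrays within each genotype as for Car2. Alas2, the erythroid enzyme of haem synthesis, had that order too, with 9.09, 8.90, 9.19 and 8.72 in wild type and 8.40, 8.70, 8.97 and 8.54 in knockout. Both were picked after their values were seen: of the 13 erythroid genes measured, 8 had the order of Car2 in wild type, 4 had it in knockout and 3 had it in both. The embryonic globin Hbb-y had it in neither, with 13.23, 13.77, 13.76 and 12.99 in wild type and 13.63, 13.15, 13.84 and 13.85 in knockout. After the genotype means were taken off, Car2 and the mean of 13 erythroid genes correlated over the 8 arrays with Pearson's r = 0.94 and Spearman's rho = 0.95 (exact permutation p within genotype = 0.00174 for each, two-sided, the smallest that 576 exchanges can give). Without wild type replicates 3 and 4, the arrays farthest from the median of the erythroid level, r was 0.83. This was 1 of 11 pairings of a member with a cell type list or, for Car9, with genes induced by low oxygen. The adjusted permutation p was 0.0191. All 11 pairings were chosen with values known, and the adjustment does not cover that choice. Car2 was not paired with the nephric duct genes. For the 10 other pairings r ran from -0.32 to 0.67, and their lowest adjusted permutation p was 0.21. Car1 beside the same erythroid genes had r = -0.32 (exact permutation p = 0.523), rho = -0.33 (exact permutation p = 0.502) and r = -0.19 without those 2 arrays, so the arrays high in erythroid signal were not those high in Car1.

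**Figure D2:**
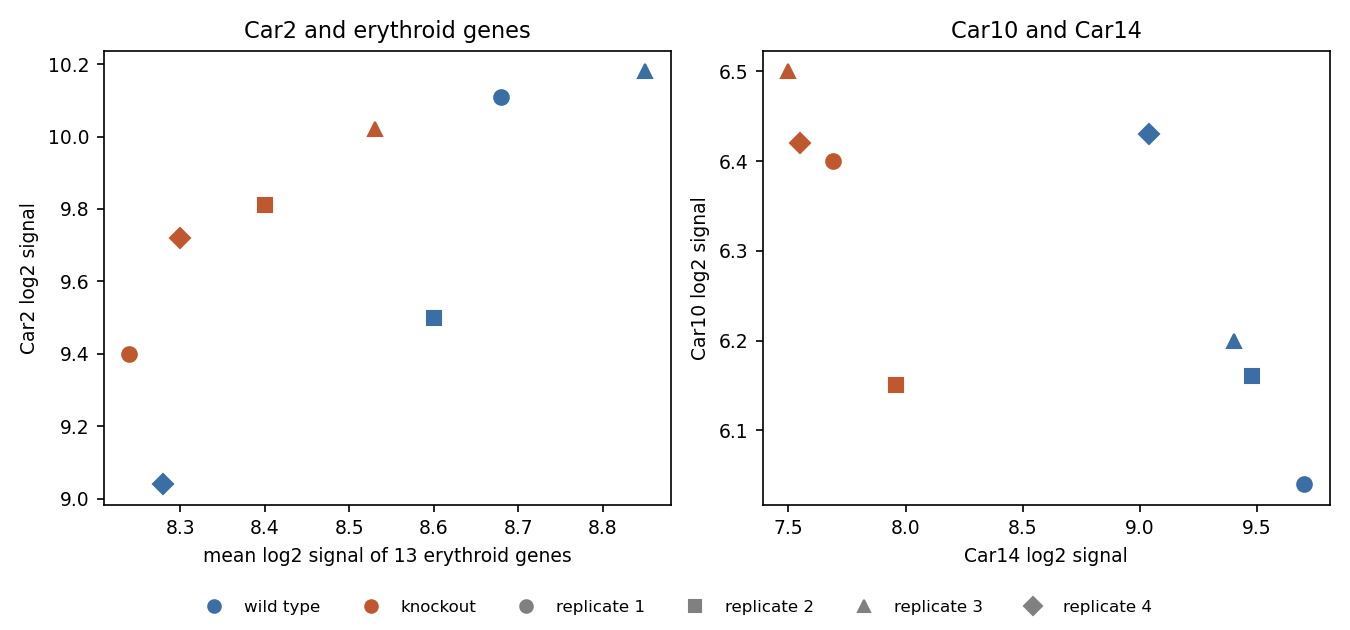
Left: Car2 log2 signal (y axis) against the mean log2 signal of 13 erythroid genes (x axis). Right: Car10 log2 signal (y axis) against Car14 log2 signal (x axis). Each point is 1 array, coloured by genotype, with the replicate number as the symbol. Within each genotype Car2 rises with the erythroid genes, and wild type replicate 4 is lowest in Car2 at 9.04.

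The catalytically inactive members Car8, Car10 and Car11 had small differences. Car8, which binds the IP3 receptor in Purkinje neurons, read 6.94, 6.92, 6.68 and 6.88 in wild type and 6.89, 6.87, 6.67 and 7.23 in knockout. Knockout replicate 4 alone lay above the wild type range, and the difference was 0.06 (SE 0.11, interval -0.19 to 0.31). Car10, a secreted neurexin ligand of the nervous system, read 6.04, 6.16, 6.20 and 6.43 in wild type and 6.40, 6.15, 6.50 and 6.42 in knockout. Its difference was 0.16 (SE 0.10, interval -0.06 to 0.38), with 2 knockout arrays and wild type replicate 4 close together near the top. Car11, a relative of Car10 known from brain, read 7.98, 7.76, 8.19 and 8.11 in wild type and 8.13, 7.69, 8.03 and 7.87 in knockout. Replicate 2 was lowest in both genotypes, and Car11 differed by -0.08 (SE 0.12, interval -0.33 to 0.18).

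Across the family, 1 of the 10 genes met the call rule of limma over all genes (adjusted p under 0.05), namely Car14, against 1.44% of all genes in either direction, 1.08% lower and 0.362% higher. The split over all genes moved with scaling, from 209 lower and 70 higher as deposited to 137 and 82 with each array centred on its median and 165 and 84 after a further quantile normalization. The groups did not overlap for 2 of the 10, Car14 lower and Car3 higher, against 10.5% of all genes in either direction, 6.47% lower and 4.04% higher. Since the family was chosen with this comparison known, nothing is read from these counts. Without knockout replicate 2 the limma count was 2 of 10, because Car3 then also met the rule with a difference of 0.58. The 9 genes other than Car14 had a median difference of 0.06 and ran from -0.39 to 0.46. By size, their median was 0.13 against 0.10 over all genes. The 3 cytosolic genes all lay above 0 (median 0.33), the 4 membrane genes had a median of -0.26 and the 3 inactive ones a median of 0.06, but each of these groups is too small to speak for a class.

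**Figure D3:**
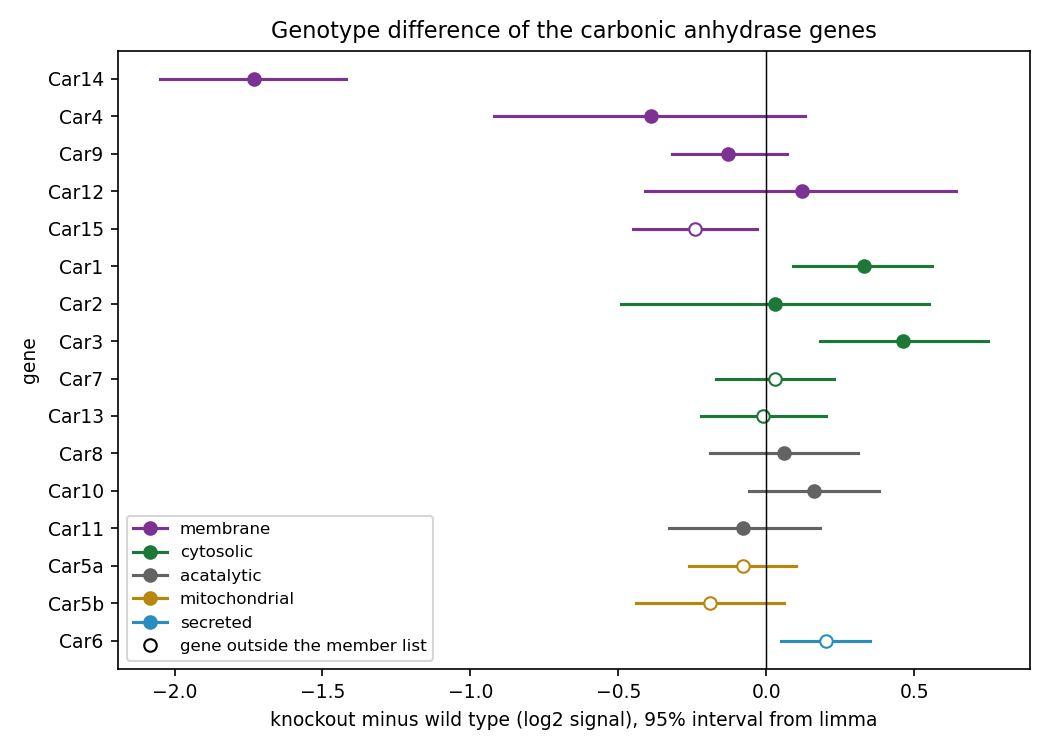
Knockout minus wild type difference in log2 signal (x axis) for the 16 carbonic anhydrase genes on the array (y axis), with the 95% limma interval as a line, coloured by class, and with open circles for the 6 genes outside the list of 10. Car14 at -1.73 stands apart from the others, which lie between -0.39 and 0.46.

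The arrays also measured the 6 remaining genes of the family, and limma called 0 of them over all genes, with 1 lower and 1 higher at an unadjusted p under 0.05. Car6, the secreted enzyme of saliva, read 5.76 to 5.95 in wild type and 5.97 to 6.14 in knockout (difference 0.20, SE 0.07, limma adjusted p = 0.193), so its groups did not overlap, as in the 4.04% of all genes given above, and it missed the threshold. Like Car5a, it lay below the 25th percentile of level. Car15, a membrane-anchored enzyme, read 7.06 to 7.43 in wild type and 6.81 to 7.09 in knockout (difference -0.24, limma adjusted p = 0.239). The cytosolic Car7 and Car13 differed by 0.03 and -0.01, and the mitochondrial Car5a and Car5b by -0.08 and -0.19, with limma adjusted p-values from 0.415 to 0.98. In the RefSeq gene order Car13, Car1, Car3 and Car2 follow one another among the family's genes on chromosome 3, and Car14 comes after them on the same chromosome, whereas Sox11 lies on chromosome 12.

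Genes next to Car14 were compared to see whether its difference was shared by its surroundings. None of the 3 nearest measured genes on either side met limma's threshold (the lowest adjusted p was 0.125). Aph1a, a subunit of gamma-secretase and the nearest gene before Car14 in the RefSeq order, read 10.68 in wild type and 10.67 in knockout on average, a difference of -0.02 (SE 0.08). Anp32e, a histone chaperone and the nearest measured gene after it, differed by -0.24 (SE 0.07, limma adjusted p = 0.125). Ciart, BC028528, Vps45 and Otud7b differed by -0.13, 0.05, -0.07 and -0.11.

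Over the 8 arrays the genes whose pattern was most like that of Car14, among 17572 named protein-coding genes, were Slc12a7, a potassium-chloride cotransporter (Pearson's r = 0.992), Prom1, a protein of membrane protrusions (0.989), Dpysl5, a cytoskeletal regulator of neurites (0.987), and Nhsl1 and Soga3 (0.986 each). These values are a search result and carry no p. The differences of these 5 between the genotypes ran from -1.20 to -0.28. They were picked by a pattern that includes the genotype difference of Car14, so a difference in its direction follows from that choice. Within the genotypes, after the group means were taken off, 71 of the 17572 genes had an r with Car14 over 0.9. The 5 genes with the highest r there were others: Ncoa7 (0.988), Lrmda (0.984), Synpo2 (0.983), Bmp4 (0.981) and Dtx3l (0.972), and of these only Lrmda also had a high r over all 8 arrays (0.943).

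The products of the reaction leave the cell through transporters, and these were compared next. Of 16 bicarbonate transporter genes of the Slc4 and Slc26 families 15 were measured, and limma called 0 of them over all genes, with 2 lower and 2 higher at an unadjusted p under 0.05. Slc26a7, an anion exchanger of kidney and stomach, read 7.01, 7.13, 7.10 and 7.24 in wild type and 7.70, 7.08, 7.89 and 7.91 in knockout. All knockout arrays but replicate 2 lay well above the wild type range. Its difference was 0.52 (SE 0.16, limma adjusted p = 0.146), and without knockout replicate 2 it was 0.71 (limma adjusted p = 0.00651, the lowest of 18 alternatives, which ran up to 0.329). Slc4a5, a sodium-bicarbonate cotransporter, differed by 0.34 (limma adjusted p = 0.221) and Slc26a6, an anion exchanger, by -0.15 (limma adjusted p = 0.264). The list had a median of 0.01, against 0.00 over all genes.

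In proton transport limma called 0 of 23 measured genes of sodium-proton exchangers, proton pumps and related transporters over all genes, with 1 lower and 1 higher at an unadjusted p under 0.05, and their median was -0.01. Hvcn1, the voltage-gated proton channel, read 9.17, 9.25, 9.22 and 8.90 in wild type and 8.67, 8.85, 8.90 and 8.62 in knockout (difference -0.38, SE 0.10, limma adjusted p = 0.089). The groups of Hvcn1 met near 8.90 without crossing, and it met the threshold without wild type replicate 4 (limma adjusted p = 0.0392) and with array weights (0.0481), in 2 of 18 alternatives that ran up to 0.229. Slc9a7, a sodium-proton exchanger of the Golgi, differed by 0.32 (limma adjusted p = 0.12) and met it without wild type replicate 3 (0.0394), in 1 of 18 alternatives that ran up to 0.269. Atp6v0a2, a subunit of the vacuolar proton pump, differed by -0.12 (limma adjusted p = 0.444).

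Genes induced by low oxygen were set beside Car9 and Car12. Of the 16 listed and measured, limma called 0 over all genes, with 1 lower and 1 higher at an unadjusted p under 0.05, and their median was 0.03. Pgk1, a glycolytic enzyme, differed by 0.43 (limma adjusted p = 0.105). This value comes from 1 of its 3 probe sets. Another had the same mean level (12.23) and the same 0.43, so it may not be a separate reading. The third gave 0.14. Pdk1 and Egln3, which limit pyruvate use and the hypoxia response, differed by 0.18 and -0.18.

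**Figure D4:**
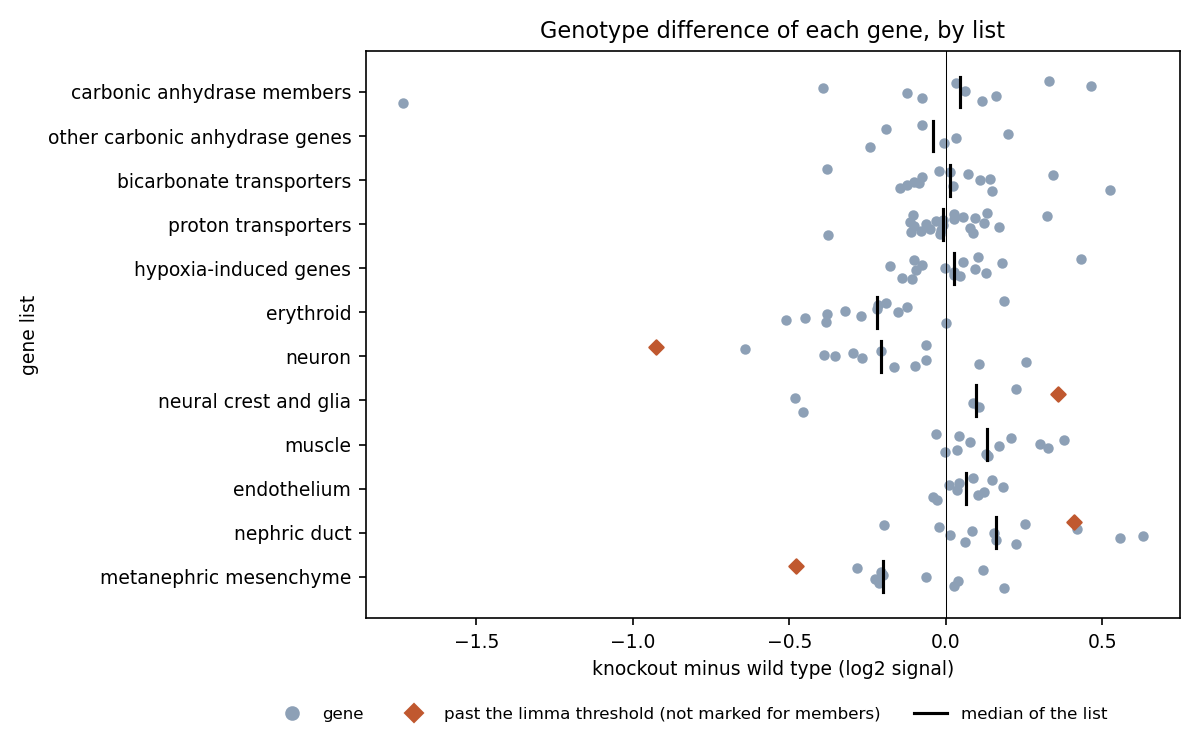
Knockout minus wild type difference in log2 signal (x axis) of every measured gene of each list (y axis), with a diamond for genes past limma's threshold over all genes, which are not marked for the 10 members, and a bar for the median. Genes of the transport and low-oxygen lists lie between -0.38 and 0.52, and the erythroid and neuron lists have medians of -0.22 and -0.21.

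Markers of other cells that a dissected ridge can hold were measured in the same arrays. Erythroid genes had 12 of 13 members below 0 and a median of -0.22, and limma called 0 of them, with 5 lower at an unadjusted p under 0.05. Their mean level ran from 8.28 to 8.85 in wild type and from 8.24 to 8.53 in knockout. Slc4a1, the red cell anion exchanger, is in both this list and that of bicarbonate transporters and differed by -0.38. Neuron genes had 11 of 13 below 0, a median of -0.21 and mean levels of 7.63 to 7.88 in wild type and 7.32 to 7.72 in knockout. At an unadjusted limma p under 0.05, 4 of them were lower and 0 higher. Dcx, a microtubule protein of young neurons, changed by -0.93 (limma adjusted p = 0.0384). Its call was lost without each array but knockout replicate 3, and also after both further scalings, beside the Y-linked covariate and in a model without moderation (limma adjusted p from 0.0108 to 0.155 over 18 alternatives).

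Neural crest and glia genes had a median of 0.10 and mean levels of 7.87 to 7.99 in wild type and 7.81 to 7.97 in knockout, and 1 of 6 was called, with 2 lower and 1 higher at an unadjusted p under 0.05. The 2 lower were Foxd3, a transcription factor of early crest (-0.48, limma adjusted p = 0.229), and Ngfr, a neurotrophin receptor (-0.46, limma adjusted p = 0.0931). Foxd3 lay below the 25th percentile of level. The called gene was Erbb3, a neuregulin receptor, which was higher by 0.36 (limma adjusted p = 0.0417) and lost its call without any 1 of the 8 arrays, beside the Y-linked covariate and without moderation (limma adjusted p from 0.0169 to 0.113 over 18 alternatives). Endothelial genes had a median of 0.06 and 0 of 10 were called by limma, with 0 at an unadjusted p under 0.05. Nephric duct genes had a median of 0.16 and mean levels of 8.97 to 9.22 in wild type and 9.25 to 9.37 in knockout, which did not overlap. Of 13, 11 lay above 0, and 5 were higher and 0 lower at an unadjusted limma p under 0.05. Only Ret was called (0.41, limma adjusted p = 0.022). Leaving out wild type replicate 2 or 3 or knockout replicate 1, 2 or 3 ended that call, as did a model without moderation (limma adjusted p from 0.00836 to 0.0764 over 18 alternatives). Metanephric mesenchyme genes had a median of -0.20 and mean levels of 9.85 to 9.97 in wild type and 9.76 to 9.87 in knockout. Of 11, 7 lay below 0, and 4 were lower and 0 higher at an unadjusted limma p under 0.05. Only Six2 was called (-0.48, limma adjusted p = 0.0437). Its call was lost without each array but wild type replicate 1, after both further scalings, beside the Y-linked covariate and without moderation (limma adjusted p from 0.0197 to 0.134 over 18 alternatives). Car14 and the mean of the neuron genes, with genotype means taken off, had r = 0.18 (exact permutation p = 0.661) and rho = 0.33 (exact permutation p = 0.434), and r was 0.77 without knockout replicates 1 and 2. Beside the neural crest and glia genes Car14 had r = 0.11 (exact permutation p = 0.767), rho = 0.05 (exact permutation p = 0.943), and r = 0.51 without wild type replicate 1 and knockout replicate 4. Adjusted over the 11 pairings, the permutation p of r was 0.898 for each. Car14 differed by -1.73, and the lowest value among all genes of these lists was -0.93. Car14 was chosen for its large difference, so this order was fixed by the choice and nothing is read from it.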

How the data were processed

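RNA from caudal urogenital ridges of 4 wild type and 4 Sox11 knockout biological replicates was hybridised to 1 array each. The authors deposited 1 log2 signal per probe set and array, and the submitters' processing notes name RMA and Partek, without versions or settings. RMA corrects background, brings the arrays to one distribution and sums the probes of a set, so low signals are compressed and a shift of all genes would be hidden. The log2 scale was read from the deposited values (4.30 to 14.62). The number of arrays limits the precision.

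Of 27478 probe sets, 21103 had exactly 1 symbol in the platform annotation, and the probe set with the highest mean was kept for each of 19356 genes. RefSeq's GRCm38.p6 table served for names, gene order and promoters. No source used here gives the authors' build. The genotype difference was fitted in R 4.3.3 by limma 3.58.1 (lmFit, eBayes, two-sided, Benjamini-Hochberg over all genes, threshold 0.05), which was tested on simulated data. Permutation tests exchanged arrays within a genotype. Figures were drawn with matplotlib 3.10.9.

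The members, gene lists and tests were chosen with earlier results of these data known. Named were the 10 members, the 6 other family genes, Sox11, called genes and up to 3 with the lowest p of each list, the neighbours of Car14 and the 5 genes most like it by each of 2 measures. Not every gene that the rule took from a list is printed, and Myod1, Myf5, Klf1, Alas2, Hbb-y and Slc4a1 were named outside it. The alternatives were 2 further scalings, a filter on level, other uses of probe sets, other variance models, array weights, a replicate block, leaving out each array and a covariate for Y-linked signal. Same-numbered arrays of the genotypes deviated with correlations of -0.165 to 0.09 across genes. Such low values do not show a pairing by replicate number, but they cannot exclude one, and the labels do not give one. Comparison of the proteins was not made here.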

Additional observations from a re-analysis of the deposited data

Results flagged for a closer look

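Car9 on knockout replicate 2 lay apart from the other knockout arrays. Its log2 signal there was 5.72, and the gap to the next array took up 0.926 of the range of the 4 arrays, above the 95% critical value of Dixon's test for 4 samples. This was 1 of 22 groups screened (the 10 carbonic anhydrase genes and Sox11 in each genotype), and chance alone gives about 1 such group in 20.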

How the results depend on the processing

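Car14 stayed lower in knockout under all 18 alternatives run, with differences from -1.86 to -1.64. Car1, Car3, Car4, Car9 and Car10 kept their sign in every alternative that measured them, while Car2, Car8, Car11 and Car12 turned in 5, 1, 1 and 3 of 18. The filter on level removed Car1 and Car9. The number of genes called, 279, became 55 without moderation, 166 with the replicate block, 151 beside a covariate for Y-linked signal, 340 above the filter on level, 357 with trend and robust moderation, 365 with array weights, 219 and 249 after the further scalings and 107 to 243 without 1 array. With array weights 1 proton transporter was called in place of 0. These weights ran from 0.5 for wild type replicate 4 to 1.39 for knockout replicate 4. Leaving out 1 array gave 1 to 2 called members, 0 to 1 bicarbonate transporters and 0 to 1 proton transporters. Whether equal replicate numbers pair the samples is not known. The knockout array that deviated most alike had the same number for 1 of the 4 wild type arrays. The replicate block changed no call among the 10 genes. Among the list genes it ended that of Erbb3 (limma adjusted p = 0.0633) and made that of Calb1, a duct gene (0.0442). Genes read near the lower end of the scale, Car1 and Car9 among them, may have larger differences than the arrays show.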

Other observations

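Car10 and Car14 deviated in opposite directions within the genotypes. Wild type replicate 1 was highest in Car14 and lowest in Car10 (9.70 and 6.04), wild type replicate 4 was lowest in Car14 and highest in Car10 (9.04 and 6.43), and knockout replicate 2 was highest in Car14 and lowest in Car10 among the knockout arrays (7.96 and 6.15). After the genotype means were taken off, r was -0.982 and rho -0.952 over 8 arrays, and r was -0.969 without wild type replicates 1 and 4. Of 17572 genes, 75 had an r with Car14 under -0.9, and 2, Car10 included, reached a value as low as that of Car10. The second count is small because Car10 itself set its cut. The pair was noticed after the values were seen and was not tested. Car10 moved within 0.39 log2 units in wild type and 0.35 in knockout, around low mean levels of 6.21 and 6.37.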
